A study of Mus musculus with 2 samples.

Results

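Integrins are the receptors by which cells hold on to matrix and to each other, and laminins are matrix proteins that many of them bind. Each integrin is a pair of 1 alpha and 1 beta subunit, and the pair decides the ligand. Itgb2 pairs with the leukocyte alpha subunits Itgal, Itgam, Itgax and Itgad, Itgb1 pairs with most of the others, and Itgb7 pairs with Itga4 and Itgae. Laminins are built from 1 alpha, 1 beta and 1 gamma chain, assembled in the cell before secretion, and they form the network of basement membranes around vessels and muscle. Macrophages use integrins to leave vessels, to bind matrix and to take up particles, while the laminins of a vessel wall are known mainly as products of its endothelial cells and pericytes.

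The 36 genes described here were taken by symbol from the 32285 genes of the files. They are 17 integrin alpha subunits, 8 integrin beta subunits and 11 laminin chains, and all 36 are protein-coding genes of the mouse genome. Within these families the genes were taken by name alone, and none of the 36 genes took part in gating cells. The families themselves were chosen with earlier results of these data known.

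Cells came from a subcutaneous syngeneic fibrosarcoma, a tumour of connective tissue transplanted between mice of one strain, in hosts of genotype WT C57BL/6. Collagenase B and DNase I at 37 °C freed the cells over 45 min, red cells were lysed, and the suspension went over a magnetic column. Iron_Pos is the column eluate, the fraction enriched for iron, and Iron_Neg is the flowthrough, so both come from tumours in wild-type hosts and differ by the column step; the files hold no measure of iron. Each is 1 single-cell library made with the 10x Genomics 3′ v3 kit, and the labels give neither the number of animals pooled nor the tumour line, so no difference below has a replicate check or a p-value.

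Iron_Pos held 13668 barcodes with 129921053 unique molecular identifiers (UMIs, 1 per captured RNA molecule) and Iron_Neg held 10124 barcodes with 132796517. Cells with at least 200 genes and at most 15% mitochondrial UMIs numbered 12143 in Iron_Pos, with a median of 7349 UMIs, and 9403 in Iron_Neg, with a median of 13017. Marker genes gated 8011 Iron_Pos and 8853 Iron_Neg cells as phagocytes, with medians of 9115 and 13305 UMIs. All 12 phagocyte markers, among them Csf1r and C1qa, were above 10 CPM (UMIs per 1000000 UMIs) in these cells. The endothelial gate held 421 Iron_Pos and 7 Iron_Neg cells, and the pericyte gate held 100 and 1. The pericyte gate used a joint list of pericyte and smooth muscle markers and does not separate these cell types. Mesenchymal cells rich in collagen RNA numbered 112 and 20, and mesenchymal cells with both Sox9 and Grem1 numbered 77 and 44. Cells that met no gate, or more than 1, made up 27.8% of the kept Iron_Pos cells and 4.86% of the kept Iron_Neg cells, with medians of 1456 and 1512 UMIs, and are in no value below. The 2 libraries shared 85 barcodes.

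Levels are UMIs summed over the cells of a gate, scaled to CPM of the gate's total. The 3′ kit counts molecules and not transcript length, so levels of different genes are UMI shares and are set side by side only as such. Intervals are exact 95% intervals (Poisson for levels, binomial for shares, conditional binomial for ratios). They cover counting error only, since cells of 1 library are not replicates.

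The upstream sequences of 4 genes are shown because these genes stand at the ends of the pattern described below: Itgam and Itgax, the integrins read mostly from phagocytes, and Itga1 and Lama5, read mostly from vessel cells. Each is the 250 bases before the annotated start in RefSeq (GRCm38.p6), 5′ to 3′ on the gene's strand, and capitals mark the letters GAGGAA or, for the other strand, TTCCTC, the purine-rich core that PU.1 and related ETS factors are known to bind.
Itgam, chr7:128062390-128062639, plus strand: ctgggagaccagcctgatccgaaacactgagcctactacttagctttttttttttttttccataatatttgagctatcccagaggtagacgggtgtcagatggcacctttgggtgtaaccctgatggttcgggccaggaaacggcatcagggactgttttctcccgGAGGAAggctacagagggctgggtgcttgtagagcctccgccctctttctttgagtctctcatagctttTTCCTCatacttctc
Itgax, chr7:128129300-128129549, plus strand: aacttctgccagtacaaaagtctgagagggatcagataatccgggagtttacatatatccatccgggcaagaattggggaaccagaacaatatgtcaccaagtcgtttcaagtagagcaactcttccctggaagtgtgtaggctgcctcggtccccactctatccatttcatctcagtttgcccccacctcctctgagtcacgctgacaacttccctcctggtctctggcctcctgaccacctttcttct
Itga1, chr13:115101965-115102214, minus strand: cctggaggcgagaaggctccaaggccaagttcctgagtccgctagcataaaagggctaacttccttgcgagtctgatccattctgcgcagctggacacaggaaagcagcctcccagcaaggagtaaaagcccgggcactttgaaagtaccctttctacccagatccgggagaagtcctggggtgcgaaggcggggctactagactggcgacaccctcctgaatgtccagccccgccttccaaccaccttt
Lama5, chr2:180225860-180226109, minus strand: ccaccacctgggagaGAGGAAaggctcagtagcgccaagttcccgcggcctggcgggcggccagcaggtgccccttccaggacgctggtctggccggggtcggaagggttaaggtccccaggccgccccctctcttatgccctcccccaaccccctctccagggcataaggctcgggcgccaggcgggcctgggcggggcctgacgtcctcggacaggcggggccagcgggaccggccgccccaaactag
The letters occurred at 2 places in the Itgam window and at 1 in the Lama5 window, and at none in the Itgax and Itga1 windows. They were in 23.3% of the 32851 windows of this length in the RefSeq table. Of the 22 integrin and laminin genes that the table holds, 12 had them in at least 1 window. The first is a share of windows and the second counts a gene through any of its windows, so they are not compared. A match is a run of letters and not a bound site. Itgam (chromosome 7, 128062640 to 128118491 in GRCm38) and Itgax (128129547 to 128150657) are neighbours on the plus strand, followed by Itgad (128154376 to 128223816). Of the genes that the column comparison turns on, Itgb7 lies on chromosome 15 (102215995 to 102231944, minus strand), Itgb5 on chromosome 16 (33829665 to 33949338, plus strand), Itga6 on chromosome 2 (71745616 to 71858416, plus strand) and Lamc1 on chromosome 1 (153218922 to 153332786, minus strand).

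Phagocytes held RNA of 13 of the 36 genes at 10 CPM or more in at least 1 library: Itgam, Itgb1, Itgb2, Itgb5, Itgal, Itga4, Itgax, Itga9, Itga5, Itgb7, Itga6, Lamc1 and Itga1. The other 23 were below that in both, and 1 of the 36, Lama1, had no UMI in Iron_Pos phagocytes. Counting every phagocyte and stromal gate with at least 20 cells, 25 of the 36 genes reached 10 CPM somewhere and 11 did not. Of those 11, Lamb3, Itgae and Itgb8 reached it among the few cells gated as T or NK cells. The 11 were Itga8, Itga10, Itga2b, Itgad, Itgae, Itgb6, Itgb8, Lama1, Lama3, Lamb3 and Lamc3, with highest levels in the phagocyte and stromal gates between 0.284 CPM for Lamb3 and 6.52 CPM for Itga2b.

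**Figure D1:**
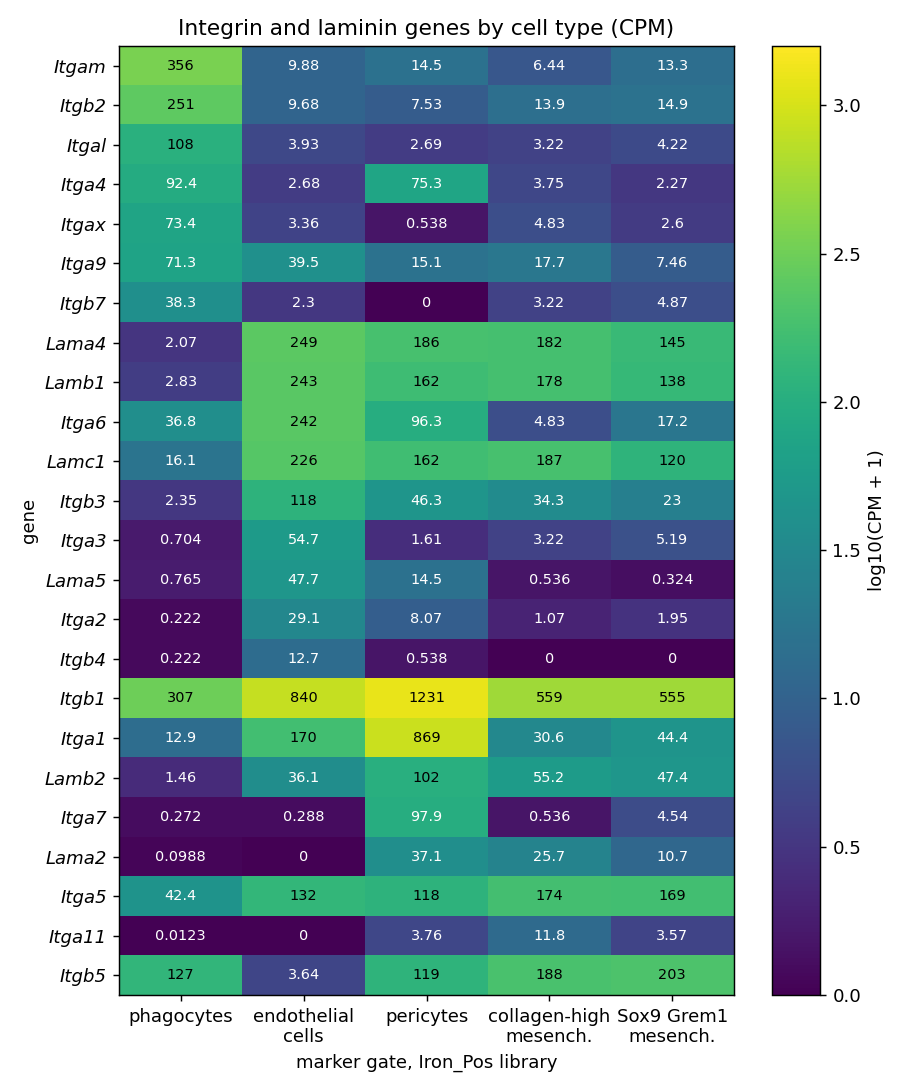
Levels (CPM, printed in each cell and coloured on a log10 scale after adding 1) of the genes reported here that reached 10 CPM in at least 1 gate of the Iron_Pos library, grouped by the gate with the highest level. Itgam, Itgb2, Itgal and Itgax are high in the phagocyte column and at 14.9 CPM or less in the stromal columns, while Lama4, Lamb1 and Lamc1 are between 120 and 249 CPM in all 4 stromal gates.

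The leukocyte integrins were read from phagocytes and hardly from stromal cells. Itgam, the alpha subunit of complement receptor 3, was at 356 CPM (352 to 360) in Iron_Pos phagocytes and 383 CPM (380 to 387) in Iron_Neg phagocytes. It had a UMI in 76.9% of Iron_Pos and 90.2% of Iron_Neg phagocytes, and in 28.8% and 32.5% after thinning every cell to 1000 UMIs, which left out 385 and 143 shallower cells. In the 4 stromal gates of Iron_Pos its level was between 6.44 and 14.5 CPM. Free RNA in droplets can give low counts to cells that do not make a transcript, and its part in these stromal counts was not tested. The phagocyte markers give a scale: per cell, they were 5.81 to 8.86 times as high in phagocytes as in the stromal gate where each was highest. The gates set part of that scale, since phagocytes needed at least 1% of UMIs from these markers and stromal cells under 0.5%. By the same measure Itgam was 6.76 times, Itgal 6.47 times and Itgax 7.14 times as high, so the 3 alpha subunits lay inside the range of the 12 markers.

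Itgb2, the shared beta subunit of these receptors, was at 251 CPM (248 to 255) in Iron_Pos phagocytes and 238 CPM (235 to 241) in Iron_Neg phagocytes. Per cell it was 4.25 times as high in Iron_Pos phagocytes as in the highest stromal gate, a little below the markers' range. Itgal, the alpha subunit of LFA-1, which binds ICAMs on endothelium, was at 108 CPM (106 to 110) in Iron_Pos and 129 CPM (127 to 131) in Iron_Neg phagocytes, and it was higher still in the 44 and 21 cells gated as T or NK cells, at 255 and 247 CPM. Itgax, the alpha subunit of complement receptor 4, was at 73.4 CPM (71.5 to 75.3) in Iron_Pos and 76.5 CPM (75.0 to 78.1) in Iron_Neg phagocytes. Of the 3 alpha subunits Itgam thus had the largest share of UMIs and Itgax the smallest, in both libraries. Itgad, the remaining partner of Itgb2, had 3 UMIs in all Iron_Pos phagocytes and none in Iron_Neg phagocytes, which is at the limit that a count of 0 allows.

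Itgb7 was also higher in phagocytes than in stroma, at 38.3 CPM in Iron_Pos phagocytes and at most 4.87 CPM in the stromal gates of Iron_Pos. Per cell the difference was smaller, at 1.99 times the highest stromal gate, well below the 5.81 to 8.86 times of the phagocyte markers. Pericyte-gated cells of Iron_Pos held no UMI of Itgb7. The next 5 integrins were shared with stromal cells. Itgb1, the most widely used beta subunit, was at 307 CPM in Iron_Pos phagocytes and 320 CPM in Iron_Neg phagocytes. In Iron_Pos it reached 840 CPM in endothelial-gated cells and 1231 CPM in pericyte-gated cells. Itgb5, whose pairs bind vitronectin, was at 127 CPM in Iron_Pos and 185 CPM in Iron_Neg phagocytes. It was at 119 CPM in Iron_Pos pericyte-gated cells but 3.64 CPM in endothelial-gated cells, so it divided these 2 gates. Itga4, which with Itgb1 binds VCAM-1 and fibronectin, stood at 92.4 CPM in Iron_Pos phagocytes, close to the 75.3 CPM of pericyte-gated cells. Itga9, a receptor subunit for tenascin and osteopontin, was at 71.3 CPM in the same phagocytes and 39.5 CPM in endothelial-gated cells. Itga5, which with Itgb1 binds fibronectin, was lower in phagocytes than in any stromal gate, at 42.4 CPM in Iron_Pos and 45.2 CPM in Iron_Neg phagocytes against 118 to 174 CPM in the stromal gates of Iron_Pos.

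Endothelial-gated cells held RNA of laminin receptor subunits and of laminin chains together, and so did pericyte-gated cells, described below. Itga6, an alpha subunit of laminin receptors, was at 242 CPM (233 to 252), Itga1, which pairs with Itgb1 to bind collagen and laminin, at 170 CPM (162 to 178), and Itga5 at 132 CPM (125 to 139). Itgb3, the beta subunit of vitronectin and fibrinogen receptors, reached 118 CPM there, against 23.0 to 46.3 CPM in the other stromal gates. Itga3 (54.7 CPM), Itga2 (29.1 CPM) and Itgb4 (12.7 CPM), which serve laminin or collagen binding, were highest in this gate among the phagocyte and stromal gates of Iron_Pos. The 7 endothelial-gated cells of Iron_Neg had 249 CPM (200 to 306) of Itga6 and 172 CPM (132 to 220) of Itga1, intervals that hold the Iron_Pos levels, but Itgb1 was at 840 CPM (822 to 858) in Iron_Pos and 1221 CPM (1110 to 1341) in those 7 cells. Lama4 was likewise at 249 CPM in Iron_Pos and 385 CPM (324 to 454) in the 7 cells.

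Pericyte-gated cells, which can include smooth muscle cells, were set apart by Itga1 and Itga7. The smooth muscle markers Acta2 and Myh11 were at 2710 and 429 CPM in this gate of Iron_Pos. Which of the cell types held the integrin RNA was not tested. Itga1 was at 869 CPM (827 to 912) and had a UMI in 96.0% of the 100 cells. Itga7, the laminin receptor subunit of muscle, was at 97.9 CPM (84.2 to 113), against 0.288 CPM in endothelial-gated cells and 0.536 to 4.54 CPM in the mesenchymal gates. This gate also held collagen-high fibroblast markers at a summed 4912 CPM, over 6 of 10 markers at 10 CPM or more, so it is not free of mesenchymal RNA, and the part of that RNA in these levels was not tested. Itga11, a collagen receptor subunit of fibroblasts, was at 11.8 CPM in the collagen-high gate and below 10 CPM in every other gate.

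The 3 chains Lama4, Lamb1 and Lamc1, which together make a laminin of vessel walls, had similar levels within each stromal gate of Iron_Pos. In endothelial-gated cells of Iron_Pos they were at 249, 243 and 226 CPM, and in pericyte-gated cells at 186, 162 and 162 CPM. In the collagen-high gate the same chains were at 182, 178 and 187 CPM, and in the Sox9 Grem1 gate at 145, 138 and 120 CPM. The 20 collagen-high cells of Iron_Neg were less even, with Lamc1 at 208 CPM (169 to 253) and Lamb1 at 131 CPM (101 to 168). The remaining chains differed more between cell types. Lama5, the other alpha chain of endothelial basement membranes, was at 47.7 CPM (43.6 to 52.0) in endothelial-gated cells and 14.5 CPM in pericyte-gated cells. Lama2, the alpha chain known from muscle, had no UMI in 421 endothelial-gated cells but was at 37.1 CPM in pericyte-gated cells and 25.7 CPM in collagen-high cells. Lamb2, a second beta chain, peaked in pericyte-gated cells at 102 CPM (88.2 to 118).

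**Figure D2:**
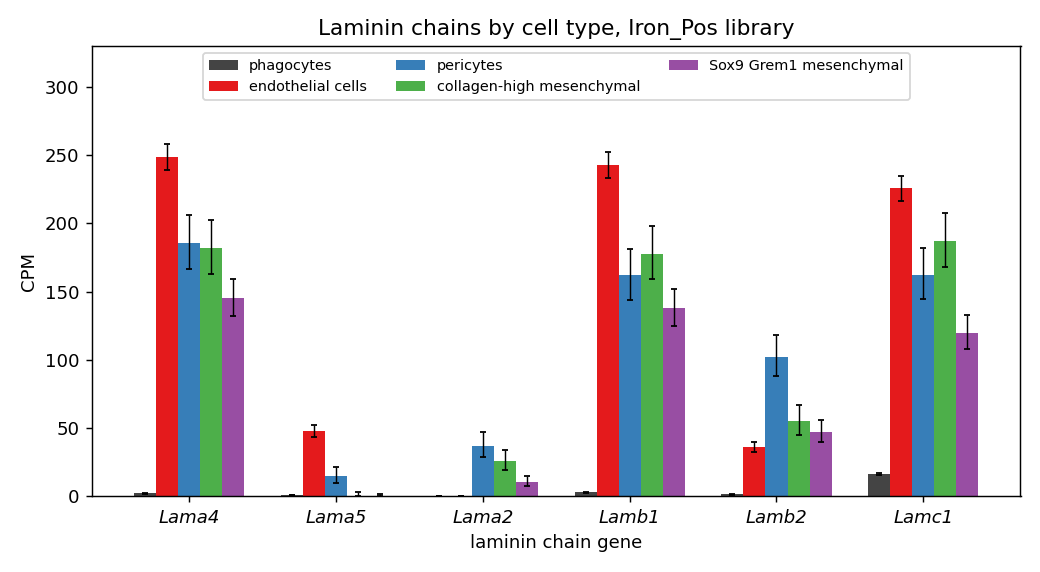
Levels (CPM, bars, with exact 95% Poisson intervals for counting error) of 6 laminin chains in 5 gates of the Iron_Pos library. Lama4, Lamb1 and Lamc1 are high in all 4 stromal gates. Lama5 stands out in the endothelial gate at 47.7 CPM and Lama2 in the pericyte gate, which can include smooth muscle cells, at 37.1 CPM. Phagocytes have a visible bar for Lamc1 alone, at 16.1 CPM.

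Phagocytes held 1 laminin chain at 10 CPM or more, Lamc1, the gamma chain found in most laminins. Its level was 16.1 CPM (15.2 to 17.0) in Iron_Pos and 11.5 CPM (10.9 to 12.1) in Iron_Neg phagocytes, with a UMI in 13.6% and 13.5% of cells and in 1.99% and 1.27% after thinning. Stromal marker genes, also read in phagocytes at low levels, give a scale for comparison, but the gating set part of it. A phagocyte could hold at most 2 markers of each endothelial, pericyte or fibroblast list and at most 1 of the Sox9 list. Stromal cells were chosen for holding several. The marker percentages were thus lowered in advance, unlike those of the laminins. No source of RNA is read from a level above them. In Iron_Pos the 36 stromal markers lay between 0.0399% and 0.547% of their highest stromal level per cell, with a median of 0.120%. Lamc1 was at 2.91%, above all 36. The main stromal alpha and beta chains were lower, with Lama4 at 0.340% and Lamb1 at 0.475% inside that range and Lama5 at 0.656% and Lamb2 at 0.775% just above it. Lamb3, at 0.284 CPM in Iron_Pos phagocytes, had 1 UMI in the 4 stromal gates of Iron_Pos together, too few for such a percentage. Where the marker and laminin UMIs of phagocytes came from was not tested.

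The chains were out of balance in phagocytes. Gamma-chain UMIs outnumbered alpha-chain UMIs 5.41 to 1 in Iron_Pos phagocytes (1319 against 244) and 28.0 to 1 in Iron_Neg phagocytes (1429 against 51). In the 4 stromal gates of Iron_Pos and the 2 mesenchymal gates of Iron_Neg the same ratio lay between 0.695 and 1.30. Among phagocytes with no UMI of any stromal marker, 2525 of the 8011 Iron_Pos cells and 5933 of the 8853 Iron_Neg cells, the ratio was 5.74 in Iron_Pos and 26.2 in Iron_Neg. Lamc1 itself remained at 15.6 CPM (13.9 to 17.5) in Iron_Pos and 11.4 CPM (10.6 to 12.2) in Iron_Neg among these cells, which is 1.37-fold (1.19 to 1.57).

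**Figure D3:**
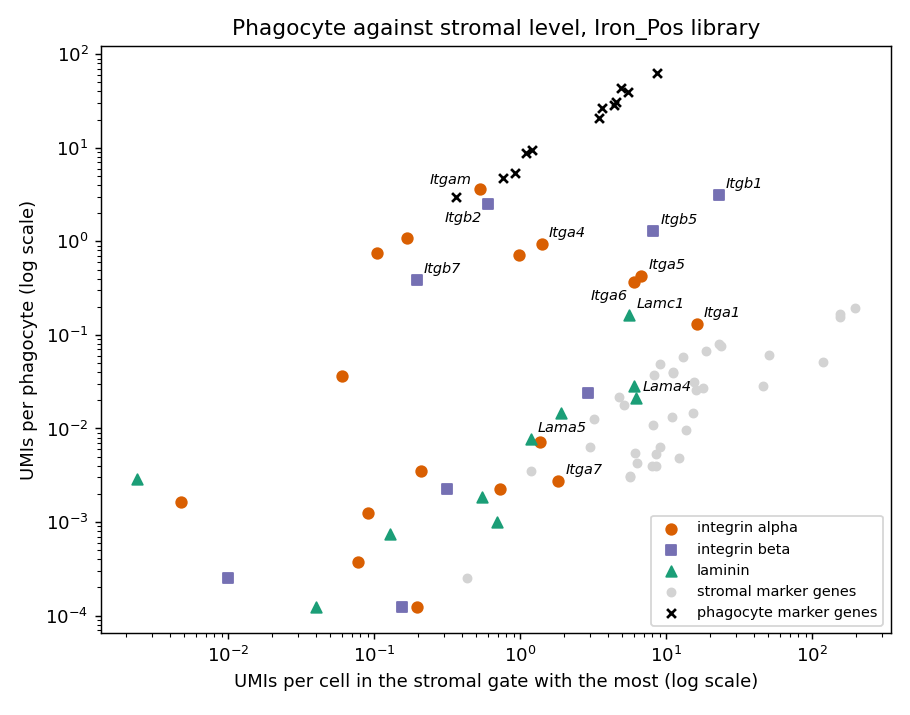
UMIs per phagocyte against UMIs per cell in the stromal gate with the most, both on log scales, Iron_Pos library, for the 35 integrin and laminin genes with a UMI in both (circles, alpha; squares, beta; triangles, laminin), stromal markers (grey) and phagocyte markers (crosses). Itgam and Itgb2 lie near the phagocyte markers, Lama4 near the stromal markers, and Lamc1, at 2.91% of its stromal level, above the stromal markers. The gates themselves limited stromal markers in phagocytes and phagocyte markers in stromal cells.

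The column comparison asks how phagocytes of the eluate differ from those of the flowthrough. Of the 13 measured genes, Itgb7 and Itga1 were past 1.5-fold higher in Iron_Pos and none was past 1.5-fold lower. Among all 7704 genes measured in phagocytes 2.14% were past 1.5-fold higher and 0.519% past 1.5-fold lower. Itga1 reached 10 CPM in Iron_Pos alone, so it could enter the 13 only by being higher there, and both ratios lie close to the fold itself; nothing is read from the 2 of 13. The median log2 ratio was -0.09 over the 13 genes and -0.11 over all genes, a shift against which each ratio is to be read. At 50 CPM or more none of them was past 1.5-fold in either direction, where 2.07% of 3196 genes were higher and 0.438% lower. Of the 13 genes, 4 had a ratio above 1 and 9 below it.

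Itgb7, the beta subunit of a homing receptor that leukocytes use for mucosal vessels, was at 38.3 CPM (37.0 to 39.7) in Iron_Pos phagocytes and 25.1 CPM (24.2 to 26.0) in Iron_Neg phagocytes, a ratio of 1.53 (1.45 to 1.60). Itga1 was at 12.9 CPM (12.1 to 13.7) in Iron_Pos and 8.46 CPM (7.95 to 8.99) in Iron_Neg phagocytes, a ratio of 1.53 (1.40 to 1.66). With 11 states weighted equally the log2 ratio was 0.33 for Itgb7 and 0.16 for Itga1, against 0.61 for each over all phagocytes. The 11 states, described below, do not hold all phagocytes, so the set of cells changed along with the weighting. Without the Mmp12 Cd36 state the log2 ratios were 0.49 and 0.58, so neither gene was past 1.5-fold in either setting. Lamc1 had a ratio of 1.40 (1.30 to 1.51), a log2 ratio of 0.48, which was 0.08 with states weighted equally. Stromal RNA also differed between these phagocytes: the 10 endothelial markers summed to 43.1 CPM in Iron_Pos and 4.72 CPM in Iron_Neg, the 12 pericyte markers to 23.7 and 7.08 CPM, and the 10 fibroblast markers to 60.4 and 17.8 CPM. Itga1 was at 0.808% of its pericyte-gate level in Iron_Pos phagocytes, above the 36 stromal markers, whose percentages the gating had lowered. Among phagocytes with no stromal marker UMI its ratio was 1.54 (1.34 to 1.77). That selection also left the ratios of Lama4 and Lamb1 high, as given below, and the part of stromal RNA in the Itga1 ratio was not tested.

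On the lower side stood Itgb5 with a ratio of 0.686 (0.670 to 0.703) and Itga6 with 36.8 CPM (35.5 to 38.2) in Iron_Pos and 52.1 CPM (50.8 to 53.4) in Iron_Neg phagocytes, a ratio of 0.707 (0.676 to 0.738). Both were highest in the same phagocyte state, described below, which held 5.54% of Iron_Pos and 17.9% of Iron_Neg phagocytes. With 11 states weighted equally the log2 ratio was -0.28 for Itgb5, against -0.54 over all phagocytes, and -0.13 for Itga6, against -0.50. The part of state shares in these ratios was not tested. Itga9 had a ratio of 0.772 (0.747 to 0.796), Itgal of 0.834 and Itga4 of 0.849. Itgam at 0.928, Itga5 at 0.938, Itgax and Itgb1 at 0.959 and Itgb2 at 1.06 (1.04 to 1.08) were nearer 1. Scaling by the median gene turned the log2 ratio of Itgam from below 0 to 0.00, and those of Itgax (0.05), Itgb1 (0.05) and Itga5 (0.02) to above 0.

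**Figure D4:**
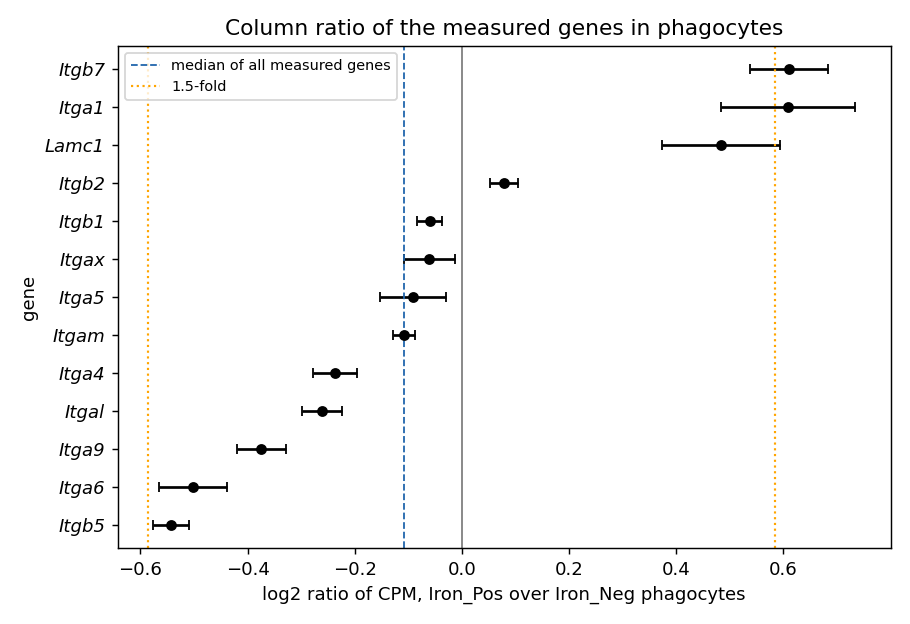
Log2 ratio of CPM, Iron_Pos over Iron_Neg phagocytes, for the 13 measured genes, with exact 95% intervals for counting error; the dashed line is the median of all 7704 measured genes and dotted lines mark 1.5-fold. Itgb7 and Itga1 lie at the right, past 1.5-fold, Lamc1 (1.40-fold) just inside it, and Itga6 and Itgb5 at the left without reaching 1.5-fold.

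Below 10 CPM the largest ratios belonged to genes read mostly from stromal cells. Lama5 had 62 UMIs in Iron_Pos phagocytes and 4 in Iron_Neg phagocytes, Lama4 168 and 42, Lamb1 229 and 60, and Itga3 57 and 10. Corrected for the UMI totals these were ratios of 23.6 (8.76 to 89.2), 6.08 (4.32 to 8.75), 5.80 (4.35 to 7.85) and 8.67 (4.39 to 19.0). These are low counts among 81003748 UMIs in Iron_Pos and 123195946 in Iron_Neg, and the sums of stromal markers given above differ in the same direction. In phagocytes with no stromal marker UMI the ratio was 5.60 for Lama4 (34 and 25 UMIs) and 8.53 for Lamb1 (58 and 28 UMIs). The part of free RNA in these ratios was not tested further. All 11 laminin chains summed to 23.9 CPM in Iron_Pos and 13.6 CPM in Iron_Neg phagocytes, a log2 ratio of 0.81, and all 25 integrin genes to 1524 and 1669 CPM, a log2 ratio of -0.13.

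Phagocytes were further sorted into states by short marker lists, and the 11 states that held 50 cells or more in each library are described. They are named by those markers: a resident-like state (Cd209f, Cd163, Lyve1 and others) and an MHC class II state stand beside a monocyte state (Ly6c2, Ccr2 and others), a cycling state, interferon and heat shock states, and states named by leading genes such as Fcrls Cx3cr1, Mmp12 Cd36 and Mmp9 Pdpn. The lists share no gene with the integrins and laminins. Phagocytes that met no state made up 21.1% in Iron_Pos and 16.9% in Iron_Neg. A Retnla Cbr2 state held 33 Iron_Pos and 111 Iron_Neg cells and is not among the 11. Values with states weighted equally leave these cells out.

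Itgax, the alpha subunit known as CD11c and used as a marker of dendritic cells, spanned 14.7-fold between states of Iron_Pos, more than any other of the 13 genes in that library. It was highest there in the MHC class II state at 144 CPM and the Il1r2 Ifitm1 state at 141 CPM, whose intervals overlapped, and lowest in the resident-like state at 9.79 CPM. Iron_Neg gave the same order at its ends, with 127 and 121 CPM in those 2 states and 13.9 CPM in the resident-like state. The resident-like state thus held Itgax at 0.125 times (0.0942 to 0.163) the level of all other Iron_Pos phagocytes and 0.179 times (0.126 to 0.245) that of all other Iron_Neg phagocytes. The Mmp9 Pdpn state was next lowest in both libraries, at 25.4 CPM in Iron_Pos and 36.6 CPM in Iron_Neg.

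Itga6 and Itgb5 had the same peak and the same trough. The Fcrls Cx3cr1 state held Itga6 at 98.4 CPM in Iron_Pos and 94.3 CPM in Iron_Neg, 3.02 times (2.74 to 3.32) and 2.25 times (2.14 to 2.37) the level of the other phagocytes. The cycling state came second, at 52.2 CPM and 64.5 CPM, and the resident-like state was lowest, at 10.3 CPM and 11.7 CPM. Itgb5 was at 247 CPM in Iron_Pos and 267 CPM in Iron_Neg in the Fcrls Cx3cr1 state, and at 39.7 CPM and 65.6 CPM in the resident-like state. Within the Fcrls Cx3cr1 state the column ratio of Itgb5 was 0.926 (0.872 to 0.984), against 0.686 over all phagocytes. That was the ratio nearest 1 among the 11 states. Their log2 ratios of Itgb5 lay between -0.73, in the resident-like state, and -0.11.

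Itga1 and Itgb7 were both high in the monocyte state and low in the Fcrls Cx3cr1 state. Itga1 was highest in the monocyte state, at 45.2 CPM in Iron_Pos and 32.6 CPM in Iron_Neg, which is 3.93 times (3.29 to 4.67) and 4.47 times (3.80 to 5.25) the level of the other phagocytes. The Il1r2 Ifitm1 state (26.9 CPM in Iron_Pos and 23.8 CPM in Iron_Neg) and the Mmp9 Pdpn state (24.9 and 23.1 CPM) were next in Iron_Pos with overlapping intervals, while the Fcrls Cx3cr1 state had 4.26 CPM in Iron_Pos and 1.80 CPM in Iron_Neg. Itgb7 was at 75.0 CPM in the monocyte state of Iron_Pos and 59.9 CPM in that of Iron_Neg, and lowest in the Fcrls Cx3cr1 state at 10.6 and 10.7 CPM. It was also high in other states: the Mmp9 Pdpn state came second in Iron_Pos, at 62.4 CPM or 1.74 times (1.58 to 1.92) the other phagocytes, and the Mmp12 Cd36 state was at 58.3 CPM or 1.67 times (1.53 to 1.82). Itga4, its alpha partner, was highest in the Gbp2b Serpina3g state (153 and 147 CPM) and lowest in the Mmp12 Cd36 state (50.9 and 61.2 CPM), whereas in Iron_Neg Itgb7 was highest in the Il1r2 Ifitm1 state at 63.5 CPM. In the monocyte state of Iron_Pos, Itga4 was within counting error of its peak, at 153 CPM.

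Itgam ranged less. In Iron_Pos it was at 554 CPM in the Mmp9 Pdpn state and 243 CPM in the Gbp2b Serpina3g state, and in Iron_Neg the same states were the ends, at 568 and 300 CPM. Its partner Itgb2 stayed between 179 CPM in the Fcrls Cx3cr1 state and 340 CPM in the monocyte state of Iron_Pos. Itgal was highest in the Gbp2b Serpina3g state (150 and 171 CPM) and lowest in the resident-like state (49.3 and 57.5 CPM). The resident-like state was therefore low for Itgal, Itgax, Itga6 and Itgb5 in both libraries. It was not low for every integrin, since in Iron_Neg it held the highest Itgb1 level of the states, at 385 CPM. Itgam there was at 1.25 times (1.18 to 1.32) the other phagocytes in Iron_Neg but 0.837 times in Iron_Pos. Itgb1 ranged least among these genes in Iron_Pos, 1.49-fold between the Fcrls Cx3cr1 state at 359 CPM and the monocyte state at 240 CPM.

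Lamc1 was highest in the Mmp12 Cd36 state, at 27.1 CPM (24.2 to 30.3) in Iron_Pos and 34.5 CPM (23.4 to 49.0) in Iron_Neg. That is 1.90 times (1.67 to 2.16) and 3.05 times (2.06 to 4.34) the level of the other phagocytes, although the Iron_Neg value rests on 69 cells. The Mmp9 Pdpn state came second, with 22.5 CPM in Iron_Pos and 20.2 CPM in Iron_Neg. The Mmp12 Cd36 state held 13.0% of Iron_Pos and 0.779% of Iron_Neg phagocytes, and without it the log2 ratio of Lamc1 between the libraries was 0.33, against 0.48 with it. With the 11 states weighted equally it was 0.08.

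**Figure D5:**
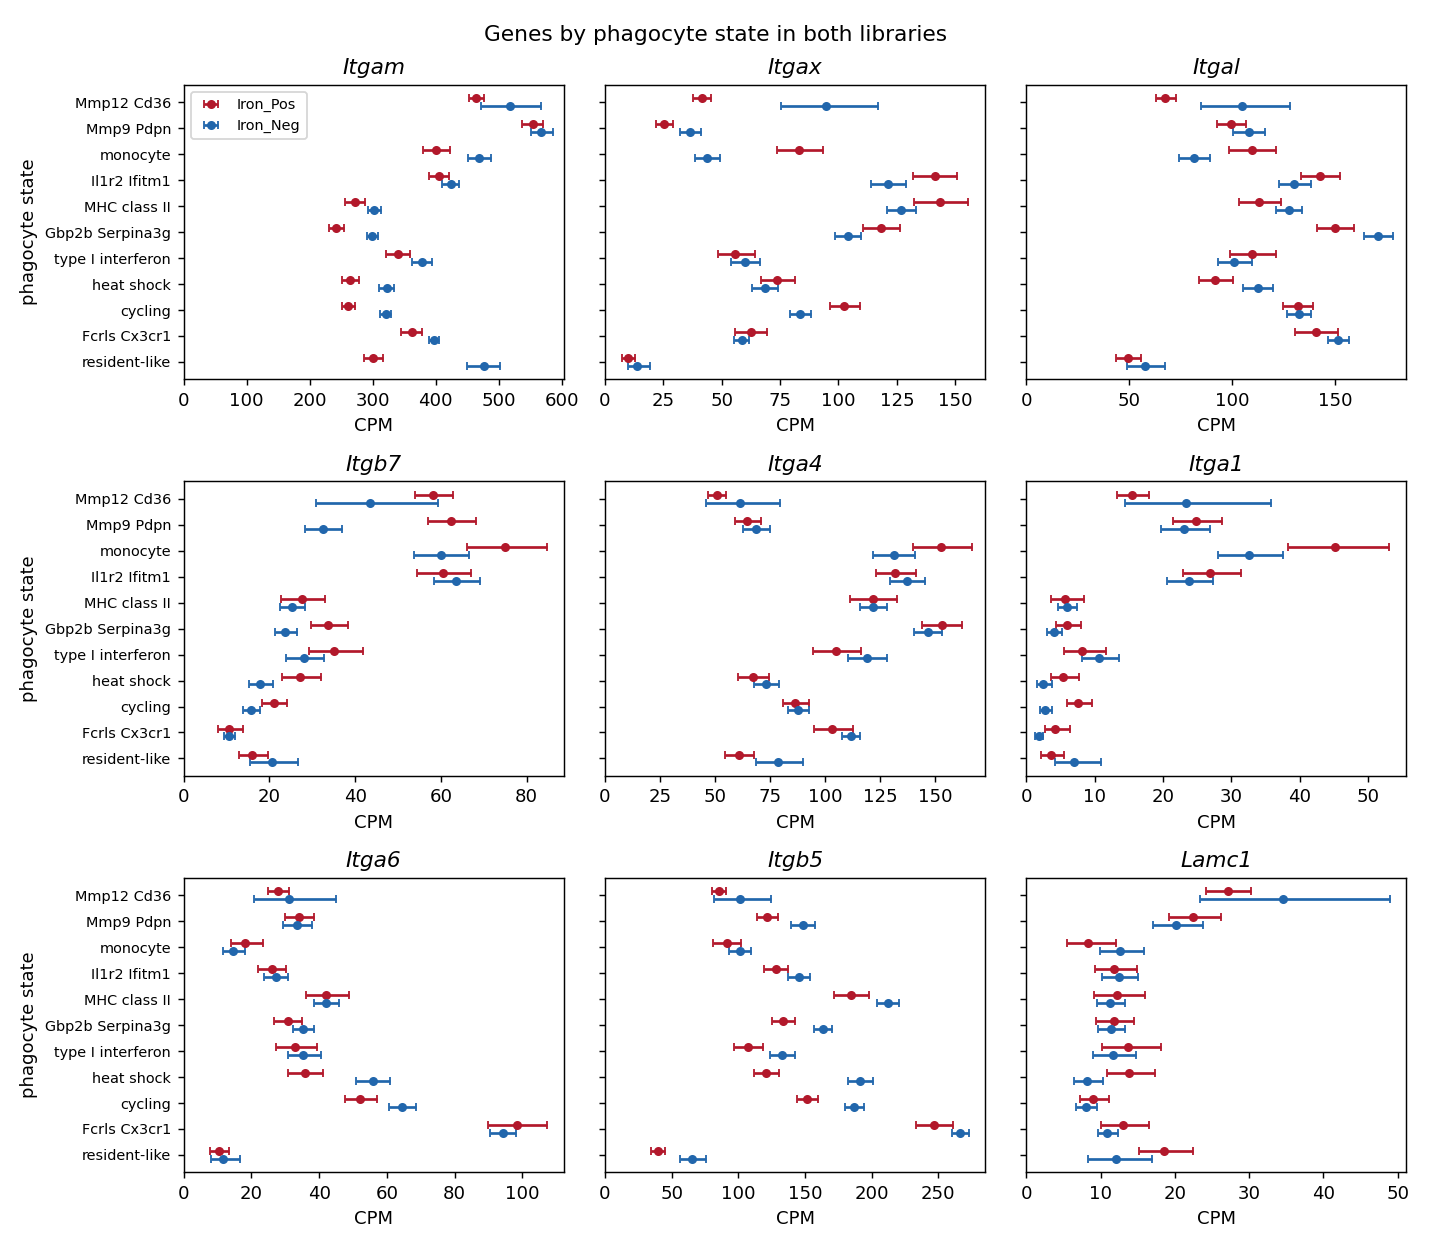
Levels (CPM, points, with exact 95% Poisson intervals for counting error) of 9 genes in 11 phagocyte states, Iron_Pos in red above Iron_Neg in blue. Itga6 and Itgb5 peak in the Fcrls Cx3cr1 state and are lowest in the resident-like state, Itga1 peaks in the monocyte state, Lamc1 in the Mmp12 Cd36 state, and Itgax is below 14.0 CPM in the resident-like state of both libraries.

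Within states 3 genes kept 1 direction throughout. Itgam, Itga9 and Itgb5 were lower in Iron_Pos in 11 of 11 states, with intervals below 1 in 9, 10 and 9 of them. Set against the median gene of each state, Itgam was lower in 10 of 11, and Itga9 and Itgb5 in 11 of 11. How many of all measured genes were lower in 11 of 11 states was not counted. The counts are therefore not read as particular to these 3 genes. The lowest ratio of Itgam was 0.633 (0.588 to 0.681), in the resident-like state, where it was at 301 CPM in Iron_Pos and 476 CPM in Iron_Neg. In that state 6.58% of all measured genes were past 1.5-fold lower. Itgb7 was higher in 9 of 11 states, with an interval above 1 in 5. Its highest ratio was 1.92 (1.64 to 2.26) in the Mmp9 Pdpn state, at 62.4 CPM in Iron_Pos and 32.4 CPM in Iron_Neg. In the Mmp9 Pdpn state 2.23% of all measured genes were past 1.5-fold higher. Itga1 reached 10 CPM in 5 states and was higher in 3 of them, with 1 interval above 1, that of the monocyte state at 1.39 (1.11 to 1.73). The 11 states come from the same 2 libraries, so they are not repeats of the comparison.

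Itgax differed in direction between states. Its ratio was 1.90 (1.60 to 2.27) in the monocyte state, at 83.0 CPM in Iron_Pos and 43.6 CPM in Iron_Neg. In the Mmp12 Cd36 state the ratio was 0.437 (0.347 to 0.557), at 41.4 CPM in Iron_Pos and 94.6 CPM in Iron_Neg. It was 0.694 (0.574 to 0.839) in the Mmp9 Pdpn state. Of all measured genes, 1.49% were past 1.5-fold higher in the monocyte state and 11.9% past 1.5-fold lower in the Mmp12 Cd36 state. The Itgax ratio was above 1 in 7 of 11 states, with 5 intervals above 1, and below 1 in 4, with 2 intervals below 1. Over all phagocytes the ratio was 0.959 (0.928 to 0.991), and the log2 ratio of -0.06 was 0.08 with states weighted equally and 0.04 without the Mmp12 Cd36 state.

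The mesenchymal gates allowed the column comparison outside phagocytes, at few cells. In the Sox9 Grem1 gate 15 of the 36 genes were measured, 6 were past 1.5-fold higher in Iron_Pos and 1 past 1.5-fold lower, where 8.86% and 7.21% of all 8185 genes were. Of these 7, Itgb3, Lama2 and Itga3 reached 10 CPM only in the library where they were higher, so the counts are not read against those shares. Itgb3 was at 23.0 CPM in Iron_Pos and 5.87 CPM in Iron_Neg, a ratio of 3.92 (2.31 to 6.99), and Itgb5 at 203 and 118 CPM, a ratio of 1.71 with an interval above 1. Itga1 had a ratio of 1.79 (1.34 to 2.40), Lama4 of 1.56 (1.34 to 1.82) and Lamb2 of 1.54 (1.18 to 2.02), while Lama2 had 33 UMIs in Iron_Pos and 1 in Iron_Neg. Itga3 was the 1 lower gene, at 5.19 CPM in Iron_Pos and 14.7 CPM in Iron_Neg, a ratio of 0.353 (0.187 to 0.638). Itgb5 was thus lower in Iron_Pos phagocytes and higher in Iron_Pos Sox9 Grem1 cells, and the difference between the 2 ratios was not tested.

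That gate held 77 Iron_Pos cells with a median of 32957 UMIs and 44 Iron_Neg cells with a median of 67616.5 UMIs. Its fibroblast markers summed to 10773 CPM in Iron_Pos and 4787 CPM in Iron_Neg and its pericyte markers to 352 and 185 CPM, and their part in these ratios was not tested. In the collagen-high gate, with 112 Iron_Pos and 20 Iron_Neg cells, 17 of the 36 genes were measured, 3 past 1.5-fold higher and 3 past 1.5-fold lower, where 13.7% and 21.3% of all 8321 genes were. Itga3 had 6 UMIs in Iron_Pos and 9 in Iron_Neg there, a ratio of 0.172 (0.0503 to 0.540). The 9 UMIs lay in few of the 20 Iron_Neg cells. At 3.22 CPM in Iron_Pos and 18.7 CPM in Iron_Neg, Itga3 reached 10 CPM in Iron_Neg alone. That minimum fixed its direction, as in the Sox9 Grem1 gate, so nothing is read from the shared direction.

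Lists of partner genes give the setting in phagocytes. Of 28 cytoplasmic adaptors that tie integrins to actin, 21 were measured, 5 with a log2 ratio above 0, 2 past 1.5-fold higher in Iron_Pos and none past 1.5-fold lower, beside 2.14% and 0.519% of all genes. Their median log2 ratio was -0.15, and -0.11 over all genes. The 2 were Rasgrp2, an activator of Rap1 upstream of integrins, at 17.5 CPM in Iron_Pos and 10.9 CPM in Iron_Neg, and Vcl (vinculin) at 12.6 and 8.05 CPM, which reached 10 CPM in Iron_Pos alone. In pericyte-gated cells of Iron_Pos, Rasgrp2 was at 274 CPM and Vcl at 209 CPM. The part of stromal RNA in their ratios was not tested. Fermt3, the kindlin of blood cells that switches integrins on, was at 211 CPM in Iron_Pos and 269 CPM in Iron_Neg, a ratio of 0.785 (0.770 to 0.799). Pxn (paxillin), with a ratio of 0.803, and Ptk2b, a kinase of the focal adhesion family, with 0.815, were also lower in Iron_Pos without reaching 1.5-fold.

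Of 19 integrin ligands 6 were measured, with a median log2 ratio of 0.05. Spp1 (osteopontin), a ligand of several integrins, was at 179 CPM in Iron_Pos and 68.6 CPM in Iron_Neg phagocytes, a ratio of 2.60 (2.54 to 2.68), and at 3508 CPM in the Sox9 Grem1 gate of Iron_Pos. Vcam1, a ligand of Itga4 pairs, was at 199 CPM in Iron_Pos and 311 CPM in Iron_Neg phagocytes, a ratio of 0.640 (0.628 to 0.652), and F11r, a ligand of Itgal pairs, at 38.1 and 61.4 CPM. Fn1 (fibronectin), with a ratio of 1.33, and Thbs1 (thrombospondin), with 1.14, did not reach 1.5-fold.

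Basement membrane partners of laminins were read mainly from stroma. Of 13 such genes 3 reached 10 CPM in phagocytes, all of them in Iron_Pos alone, so that minimum itself fixed their direction. They were Col4a1 at 22.7 CPM in Iron_Pos and 2.24 CPM in Iron_Neg, Col4a2 at 15.9 and 1.54 CPM, and Sparc at 51.0 and 6.18 CPM. Their levels in the stromal gates of Iron_Pos reached 3146 CPM for Col4a1 and 1483 CPM for Col4a2, and Sparc reached 8365 CPM in pericyte-gated cells. Col4a1 and Col4a2 encode the collagen IV that laminins are laid down with. Their phagocyte counts moved with the stromal marker sums given above, and the part of stromal RNA in them was not tested.

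Of 14 other laminin receptors and integrin partners 12 were measured, 4 with a log2 ratio above 0 and a median of -0.05. Cd9, a tetraspanin that associates with integrins, was at 94.6 CPM in Iron_Pos and 47.6 CPM in Iron_Neg, a ratio of 1.99 (1.92 to 2.06), and Sdc1 (syndecan-1), a proteoglycan that binds laminin, at 17.2 and 6.75 CPM, a ratio of 2.55 (2.34 to 2.78). Sdc1 reached 10 CPM in Iron_Pos alone, so that minimum fixed its direction. In the Sox9 Grem1 gate of Iron_Pos, Cd9 was at 336 CPM and Sdc1 at 169 CPM, and the part of stromal RNA in their ratios was not tested. The other 10 were inside 1.5-fold, and 2.14% of all genes were past 1.5-fold higher and 0.519% past 1.5-fold lower. Cd81, a tetraspanin, had a ratio of 0.844 and Cd151, the tetraspanin that binds laminin-receptor integrins, a ratio of 1.14.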

How the data were processed

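Each library has 1 deposited matrix of UMI counts, not normalized, per the file headers and the whole-number values. Reads were mapped to mm10 with Cell Ranger per the submitters' processing notes, which give version 3.1.0, whereas 5.0.0 stands in the file headers, and this was not reconciled. No source used here names the annotation release. No barcode had under 500 UMIs. Cells needed at least 200 genes and at most 15% mitochondrial UMIs. Phagocytes needed 8 of 12 markers with at least 1% of UMIs, and stromal gates under 0.5% of UMIs from those markers with 5 of 10 endothelial, 6 of 12 pericyte, or 5 of 10 fibroblast or 3 of 4 Sox9-list markers; of the mesenchymal cells, those with a UMI of both Sox9 and Grem1 form the Sox9 Grem1 gate and the others the collagen-high gate. The pericyte list of 12 markers includes smooth muscle markers. Phagocytes could hold at most 2 markers of each endothelial, pericyte, fibroblast or T and NK list and at most 1 of the Sox9 list. Cells meeting gates of 2 lineages were left ungated, which was the treatment of doublets, so doublets within a lineage remain. Phagocyte states took the highest marker score (log of counts per 10000, at least 1 SD above the mean of all phagocytes, with 2 markers detected). Counts were summed per gate and library. Ratios are Iron_Pos over Iron_Neg CPM, log2 ratios add 0.5 to each count, and genes at 10 CPM or more in either library were measured. Past 1.5-fold is a size and not a test, since there was 1 library per group. Genes at 10 CPM or more in phagocytes or a stromal gate were named with values, as were the 3 largest log2 ratios in each direction of each partner list. The family and the lists were chosen with earlier results of these data known. Some genes of these families are not reported here. Ratio recovery was tested on simulated counts. Positions came from GENCODE M21 (GRCm38), which matched 36 of 36 genes by ID, and upstream sequence from RefSeq. Alternatives changed the filters, the gates, the weighting of cells and states, and the scaling. Tables were handled with pandas 2.3.3 and numpy 2.4.6 under Python 3.11.15, intervals came from scipy 1.17.1 and figures from matplotlib 3.10.9.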

Additional observations from a re-analysis of the deposited data

Results flagged for a closer look

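The Itgax difference between the libraries ran in opposite directions in 2 phagocyte states: its log2 ratio, Iron_Pos over Iron_Neg, was 0.93 in the monocyte state and -1.20 in the Mmp12 Cd36 state. The difference between the states was not tested, and the Iron_Neg library holds 69 cells of the Mmp12 Cd36 state. Of all measured genes, 1.49% were past 1.5-fold higher in the monocyte state and 11.9% past 1.5-fold lower in the Mmp12 Cd36 state.

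Cells gated as T or NK cells, 44 in Iron_Pos and 21 in Iron_Neg, are in no comparison between the libraries above and held some of these genes with an interval above the level in every phagocyte and stromal gate. Lamb3, a laminin beta chain best known from epithelium, was at 49.4 CPM (25.5 to 86.3) in Iron_Pos and 36.0 CPM (14.5 to 74.1) in Iron_Neg, from 12 and 7 UMIs, while it was at 0.284 CPM in Iron_Pos phagocytes. Itgal was at 255 CPM (196 to 327) in Iron_Pos and 247 CPM (182 to 327) in Iron_Neg, and Itgb7 at 136 CPM (93.5 to 191) and 123 CPM (79.0 to 183). Itga4 reached 210 CPM (156 to 276) in Iron_Pos. Itgae, the alpha partner of Itgb7 on tissue-resident T cells, was at 53.5 CPM (28.5 to 91.5) in Iron_Pos, from 13 UMIs in 4.55% of the cells, and Itgb8 at 24.7 CPM (9.07 to 53.8), from 6 UMIs.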

How the results depend on the processing

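The count of genes past 1.5-fold higher in Iron_Pos phagocytes, 2 as reported, was 1 after thinning each cell to 1000 UMIs, 1 with 1 more marker required per gate, 0 with states weighted equally, 0 at 50 CPM or more and 0 without the Mmp12 Cd36 state. Both genes lie close to that fold, with log2 ratios of 0.61 each, and over the alternatives Itga1 ranged from 0.16 to 0.72. The count past 1.5-fold lower, 0 as reported, was 1 after thinning and 1 with the mean of each cell's CPM. The laminin sum, a log2 ratio of 0.81, was 0.91 after thinning, 1.14 with the mean of each cell's CPM, 0.46 with states weighted equally and 0.92 scaled by the median gene. The integrin sum, -0.13, was -0.17 after thinning, -0.20 with the mean of each cell's CPM, -0.11 with states weighted equally and -0.022 scaled by the median gene. The cause of these shifts was not tested. Of 143 log2 ratios of the 13 genes under 11 alternatives, 135 kept their sign and 90 lay within the interval of the reported value. Signs changed for Itgam, Itgax, Itgb1, Itgb2 and Itga5, whose reported log2 ratios lie between -0.11 and 0.08. No paired analysis was possible because each group is 1 library. Iron_Pos phagocytes held fewer UMIs, and levels of a few CPM rest on few UMIs.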
